A study of Homo sapiens with 11 samples.

Results

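The DNAJ co-chaperones were taken from the deposited gene table as every protein-coding gene whose symbol begins with DNAJA, DNAJB or DNAJC followed by a number. The rule gave 45 of 58735 listed genes (19951 of them protein-coding), with 4 in class A, 12 in class B and 29 in class C, and it used no measured value. A further 25 genes whose symbols begin the same way are pseudogenes or non-coding RNAs and are not members.

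The 11 libraries hold poly(A) RNA of HEK293T, a line derived from human embryonic kidney, in 4 groups. Control cells had 3 libraries. The deposited labels give their treatment as control siRNA, and the study's methods name a non-targeting siRNA as negative control, while a supplementary legend gives these samples the code HKWT without explaining it. The knockdown cells were harvested 48 h after transfection. The siNAE1 group (3 libraries) received 50 nM of siRNA against NAE1, the siUBE2M group (3 libraries) received 70 nM against UBE2M, and the siURM1 group (2 libraries) received 60 nM against URM1. The labels number the libraries of a group as biological replicates. The siRNA amounts differed between the knockdowns, and each gene was knocked down in the same cell line without a rescue. The study compared the groups to follow the genes that respond to lower levels of URM1, a ubiquitin-like protein, or of NAE1 and UBE2M, enzymes of the NEDD8 pathway that the study examined as enzymes of URM1.

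DNAJ proteins carry a J domain, which makes an HSP70 chaperone hydrolyse ATP and close on its substrate, so the DNAJ partner decides where HSP70 acts and on what. Class A proteins resemble bacterial DnaJ and class B proteins share its J domain and glycine-rich stretch, and many of both classes deliver unfolded proteins in the cytosol. Class C proteins share only the J domain and serve particular sites such as the endoplasmic reticulum (ER), mitochondria, ribosomes, the spliceosome and vesicles.

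Total counts per library ranged from 11733163 to 16321391, and mitochondrial genes took 4.12% to 5.72% of them. The targeted transcripts were lowest in the cells treated against them, with log2 fold changes against control of -1.36 for NAE1 in siNAE1, -3.98 for UBE2M in siUBE2M and -1.80 for URM1 in siURM1. All 8 listed HEK293T genes passed the filter on low counts. In siNAE1 4 rose and 1 fell (50% and 12.5%, beside 27.6% and 27.1% of all genes). In siUBE2M 2 rose and 2 fell (25% and 25%, beside 22.7% and 22.6%). In siURM1 7 rose and none fell (87.5% higher, where 20.8% of all genes were, with a median log2 fold change of 0.53). The part of these genes in the DNAJ values was not tested. No gene of a 9-gene hepatocyte list passed the filter. In these bulk samples a lower level from fewer cells cannot be told apart from less RNA per cell.

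Of the 45 members, 42 passed the filter on low counts (4 in class A, 11 in class B and 27 in class C). The other members were DNAJB8, with 1 count in 1 siUBE2M library, DNAJC5B, with 1 count in each control library and none elsewhere, and DNAJC25-GNG10, a read-through of neighbouring genes, with no count. Levels between genes were compared as FPKM, the deposited fragments scaled to the listed gene length and to library size. The mean control FPKM was at least 10 for 13 members, from 1 to 10 for 24 and under 1 for 8.

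**Figure D1:**
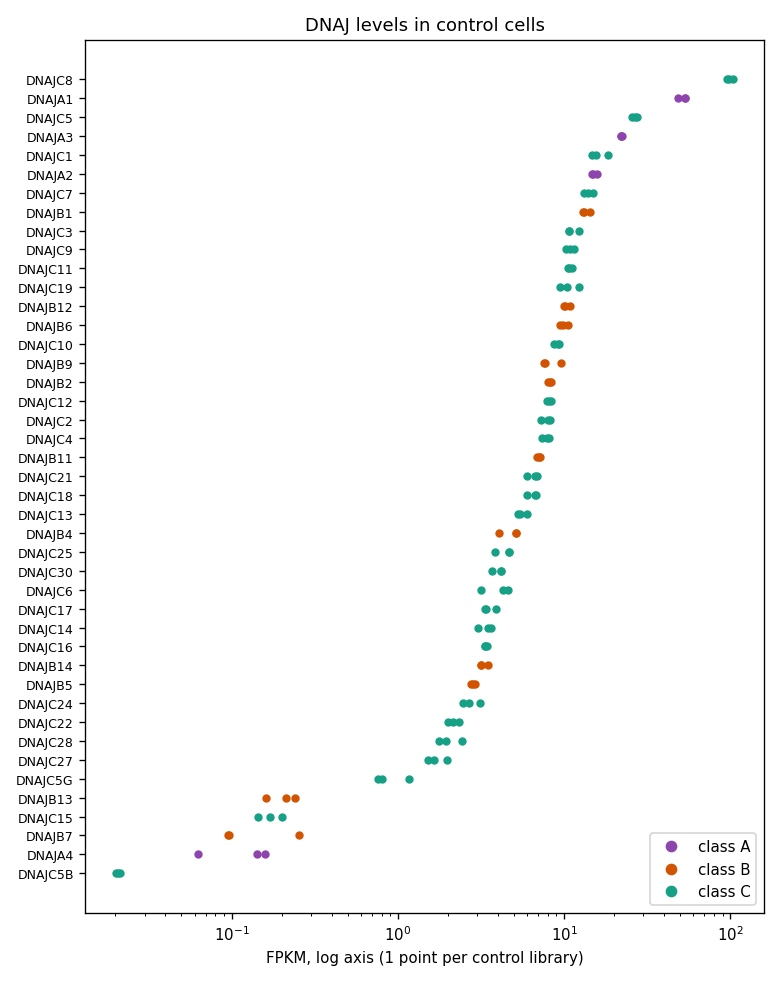
FPKM of the 43 members with a value above 0 in control cells on a log axis, 1 point for each of the 3 control libraries, coloured by class. DNAJC8 stands highest (mean 99.7), followed by DNAJA1 (51.7) and DNAJC5 (26.7), and the lowest levels belong to DNAJA4 (0.121) and DNAJC5B (0.0208).

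DNAJC8, a class C protein linked to the spliceosome, had the highest mean control level (99.7 ± 3.92 FPKM, SD, n = 3). DNAJA1 followed with 51.7 ± 2.47 FPKM and DNAJC5 with 26.7 ± 0.991 FPKM. DNAJC8, DNAJA1, DNAJC5 and DNAJA3 (22.0 ± 0.189 FPKM) each stood apart from the next by more than their SDs, whereas DNAJC3, DNAJC9, DNAJC11 and DNAJC19, with means of 11.3, 10.9, 10.8 and 10.7 FPKM and SDs of 0.377 to 1.39, did not differ beyond their spread. FPKM depends on the listed length, which was 14981 bases for DNAJB6 and 2730 bases for DNAJA1.

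Summed over all members, class A gained most, class B less and class C least, an order that held in siNAE1 but not in siUBE2M or siURM1 once the highest member of each class was left out. Summed class A FPKM was 85.7, 90.2 and 91.0 in the control libraries, 178, 192 and 187 in siNAE1, 131, 122 and 133 in siUBE2M, and 119.6 and 125 in siURM1. Every knockdown library lay above every control library, and the siNAE1 libraries lay above all others. The mean ratios to control were 2.09, 1.45 and 1.37 for siNAE1, siUBE2M and siURM1. Summed class B FPKM was 67.7, 69.4 and 68.5 in control, 94.0, 98.2 and 101 in siNAE1, 83.0, 83.5 and 91.5 in siUBE2M, and 80.4 and 81.7 in siURM1, with ratios of 1.43, 1.25 and 1.18. Summed class C FPKM was 274, 293 and 286 in control, 272, 282 and 284 in siNAE1, 306, 296 and 313 in siUBE2M, and 299 and 306 in siURM1. Class C libraries of siNAE1 and control overlapped (ratio 0.983), and those of siUBE2M and siURM1 lay above control (1.07 and 1.06). The FPKM sum over all listed genes was 266814 to 280863 in control, 295889 to 315190 in siNAE1, 271961 to 293687 in siUBE2M, and 301372 and 309528 in siURM1. In that sum too, every siNAE1 and siURM1 library lay above every control library. The part of that shift in the class sums was not tested. These sums are described without a test.

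**Figure D2:**
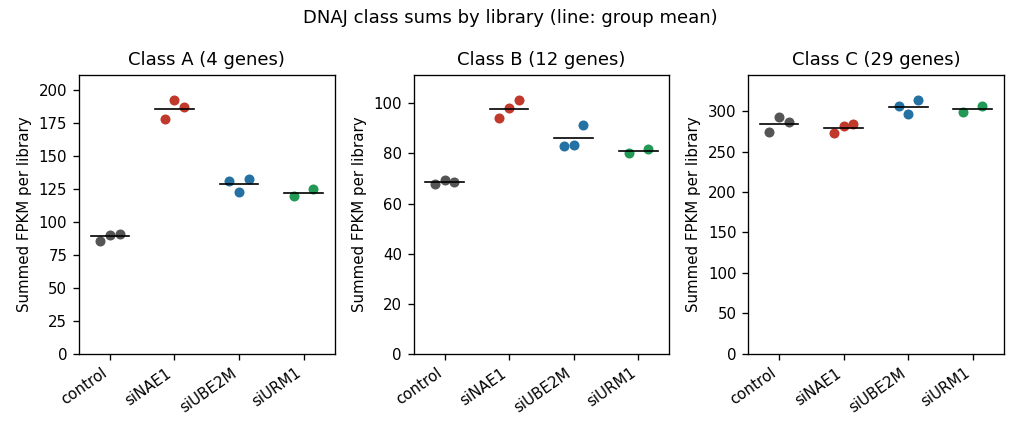
Summed FPKM of the 4 class A, 12 class B and 29 class C members in each library, with a line at each group mean and each vertical axis starting at 0. Class A rises from a control mean of 89.0 to 186 in siNAE1, 129 in siUBE2M and 122 in siURM1, while class C stays between 272 and 313 in all 11 libraries.

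A single member carried much of each rise. DNAJA1 supplied 58.1% of class A FPKM in control cells and 74.7%, 69.6% and 67.4% in siNAE1, siUBE2M and siURM1, and DNAJB1 supplied 19.7% of class B in control cells and 37.3%, 33.1% and 27.2%. Without DNAJA1 the class A ratios were 1.26, 1.05 and 1.07, and without DNAJB1 the class B ratios were 1.11, 1.05 and 1.07. Without DNAJC8, its highest member, class C was at 1.04, 1.11 and 1.05, so that in siUBE2M class C then stood above both other classes. Class A therefore held 20.1% ± 0.239 of all DNAJ FPKM in control cells and 33.0% ± 0.518, 24.8% ± 0.405 and 24.1% ± 0.272 in the 3 knockdowns, and class C held 64.3% ± 0.318 in control cells and 49.7% ± 0.379, 58.7% ± 0.363 and 59.8% ± 0.173 (SD over libraries).

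Gene by gene, "changed" means a Benjamini-Hochberg adjusted p under 0.05 over all 18368 genes tested with the quasi-likelihood F test of edgeR, and DEG means in addition a log2 fold change of at least 1 in size. In siNAE1 30 members changed, 17 higher and 13 lower, where 27.6% of all genes tested were higher and 27.1% lower. The 5 DEGs (DNAJA1, DNAJA4, DNAJB1, DNAJB13 and DNAJC25) were all higher, against 5.30% of all genes called higher and 8.61% called lower by that rule. In siUBE2M 24 members changed, 14 higher and 10 lower, where 22.7% of all genes were higher and 22.6% lower; without siUBE2M replicate 1 these were 13 and 5. Its 3 DEGs (DNAJB1, DNAJB13 and DNAJC2) were higher, against 3.22% of all genes higher and 3.89% lower. Without siUBE2M replicate 2 the DEGs were 2 higher and 1 lower. In siURM1 21 members changed, 12 higher and 9 lower, with 20.8% of all genes higher and 20.8% lower. Its only DEG, DNAJC15, was lower, against 2.89% of all genes higher and 4.73% lower. The count was 0 without siURM1 replicate 1 and 2 without siNAE1 replicate 1 or 2 or siUBE2M replicate 2 or 3. The shares of members that were higher, 40.5%, 33.3% and 28.6% in the 3 knockdowns, lay above those of all genes. The shares that were lower, 31.0%, 23.8% and 21.4%, lay near them. When libraries were scaled by total counts alone, 9 members were higher and 10 lower in siURM1. With at least 10 counts required in every library, 27, 23 and 20 of 37 members changed, beside 9084, 7829 and 7241 of 14479 genes. The median absolute log2 fold change was 0.45, 0.29 and 0.28 for members and 0.42, 0.34 and 0.34 for all genes.

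Most of these changes were small. Of the members that changed, 25 in siNAE1, 21 in siUBE2M and 20 in siURM1 moved by less than 1 on the log2 scale, and the median over all 42 members was 0.10, 0.03 and 0.12 beside -0.00, 0.01 and -0.02 over all genes. The class A medians were 1.00, 0.57 and 0.44, the class B medians 0.15, 0.17 and 0.19, and the class C medians -0.04, 0.00 and 0.09. DNAJB7, DNAJC5G, DNAJC27 and DNAJC28 were the 4 tested members that changed in no knockdown. The 3 knockdowns were compared with the same control libraries, so a control library that deviates moves all 3 values of a gene together.

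**Figure D3:**
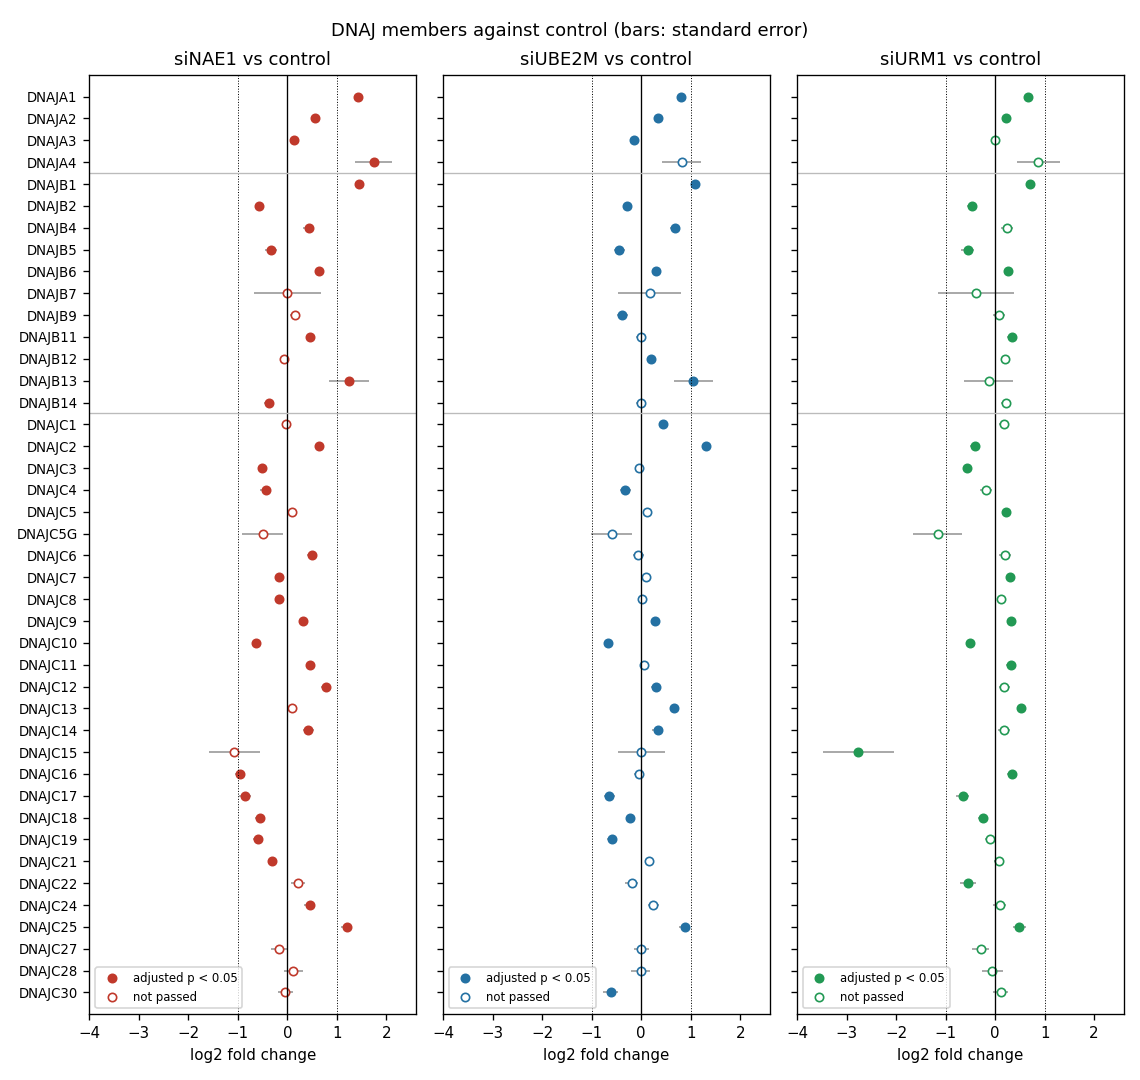
Log2 fold change against control of the 42 tested members, by class from top to bottom, with standard errors as bars, filled points for an adjusted p under 0.05, and dotted lines at -1 and 1. Most points lie between the dotted lines; DNAJA1, DNAJB1 and DNAJC25 are filled and above 0 in all 3 panels, and DNAJC15 in siURM1 is the only filled point below -1.

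Cytosolic members that hand unfolded proteins to HSP70 moved both ways. All 9 of the listed members changed in siNAE1, 6 higher and 3 lower, and 7 changed in siUBE2M and in siURM1, 5 higher and 2 lower each, where 27.6%, 22.7% and 20.8% of all genes were higher and 27.1%, 22.6% and 20.8% lower. Of the 5 higher in siURM1, DNAJA2 and DNAJC7 lost their calls without siURM1 replicate 2. Their median log2 fold changes were 0.57, 0.34 and 0.26. This list, like the others below, was drawn up with earlier results of these data known.

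DNAJA1 (ENSG00000086061, GRCh38 chromosome 9, 33025211 to 33039907, plus strand), a farnesylated cytosolic class A protein, was at 135, 146 and 146 CPM (counts scaled to library size with TMM factors) in control libraries, 364, 400.0 and 388 in siNAE1, 253, 235 and 254 in siUBE2M, and 218 and 236 in siURM1. No knockdown library overlapped control, and the siNAE1 libraries stood above both other knockdowns. The folds were 2.70, 1.74 and 1.59, with log2 fold changes of 1.43 ± 0.06, 0.80 ± 0.06 and 0.67 ± 0.07 (SE) and adjusted p-values of 9.74e-19, 3.4e-12 and 1.25e-09.

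DNAJB1 (ENSG00000132002, chromosome 19, 14514770 to 14529770, minus strand), the stress-inducible class B protein also called HSP40, was at 48.5, 52.9 and 48.5 CPM in control, 128, 137 and 143 in siNAE1, 103, 99.6 and 115 in siUBE2M, and 80.6 and 82.8 in siURM1. The 4 groups did not overlap each other. The folds were 2.72, 2.12 and 1.63, and the log2 fold changes of 1.44 ± 0.07, 1.08 ± 0.07 and 0.71 ± 0.08 had adjusted p-values of 3.76e-17, 1.12e-13 and 1.24e-08. In GENCODE v44, 525 exonic bases of DNAJB1 (6.41%) overlap TECR on the opposite strand, whose log2 fold changes were 0.56, 0.58 and 0.60; the share of reads from that overlap was not tested.

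DNAJA2 (ENSG00000069345, chromosome 16, 46955362 to 46973788, minus strand), a cytosolic class A protein known for work with HSC70, was at 76.8, 74.8 and 80.8 CPM in control, 109, 122 and 113 in siNAE1, 99.995, 90.6 and 104 in siUBE2M, and 91.4 and 88.4 in siURM1. All knockdown libraries lay above control. The log2 fold changes were 0.57 ± 0.07, 0.34 ± 0.07 and 0.21 ± 0.08 (adjusted p = 2.79e-08, 0.000142 and 0.0265). The siURM1 call was lost without control replicate 1 or 2 or without either siURM1 replicate, with log2 fold changes of 0.19 to 0.24, and with total counts in place of TMM (0.12).

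DNAJA4 (ENSG00000140403, chromosome 15, 78264086 to 78282196, plus strand), a class A protein close to DNAJA1, was scarce. It had 7, 17 and 15 counts in control (0.423, 1.05 and 0.947 CPM), 48, 26 and 30 in siNAE1 (3.69, 1.82 and 2.69 CPM), 21, 20 and 20 in siUBE2M (1.55, 1.31 and 1.40 CPM), and 23 and 22 in siURM1 (1.44 and 1.52 CPM). The siNAE1 libraries lay above all others. The siNAE1 fold of 3.37 passed the test (log2 fold change 1.75 ± 0.37, adjusted p = 0.000182), and the siUBE2M and siURM1 values of 0.81 ± 0.40 and 0.87 ± 0.43 did not (adjusted p = 0.0937 and 0.105), although their libraries lay above control.

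DNAJB6, which keeps aggregation-prone proteins soluble, rose in all 3 knockdowns. It was at 143, 159 and 148 CPM in control, 237, 224 and 239 in siNAE1, 187, 171 and 195 in siUBE2M, and 175 and 184 in siURM1, with log2 fold changes of 0.64, 0.30 and 0.26. DNAJB4, a close relative of DNAJB1, rose in siNAE1 (0.43) and siUBE2M (0.69), and its siURM1 value was 0.24. DNAJB2 and DNAJB5 fell in all 3 knockdowns. DNAJB2, which carries ubiquitin-interacting motifs, was at 49.1, 47.5 and 49.3 CPM in control, 31.3, 32.4 and 34.8 in siNAE1, 36.7, 41.6 and 41.6 in siUBE2M, and 37.7 and 32.6 in siURM1, with log2 fold changes of -0.57, -0.28 and -0.47. The DNAJB5 values were -0.33, -0.45 and -0.55. The cytosolic list thus held members that moved both ways within class B.

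DNAJC7 (ENSG00000168259, chromosome 17, 41976433 to 42021376, minus strand), which holds both HSP70 and HSP90 through TPR repeats, moved in opposite directions. It was at 126, 140.3 and 133 CPM in control, 113, 126 and 115 in siNAE1, 145, 135 and 148 in siUBE2M, and 156 and 172 in siURM1. The siNAE1 libraries lay below the lowest control library, 1 of them barely, and the siURM1 libraries above the highest. The log2 fold change was -0.17 ± 0.07 in siNAE1 (adjusted p = 0.0298), 0.10 ± 0.07 in siUBE2M (0.208) and 0.30 ± 0.07 in siURM1 (0.00118). The siNAE1 call was lost without control replicate 2 or 3 or siNAE1 replicate 1 or 3 (-0.17 to -0.13) and with no filter on low counts (-0.17), and the siURM1 call without siURM1 replicate 2 (0.23). The direct difference of siNAE1 from siURM1 was -0.47 ± 0.07 (adjusted p = 4.74e-06).

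**Figure D4:**
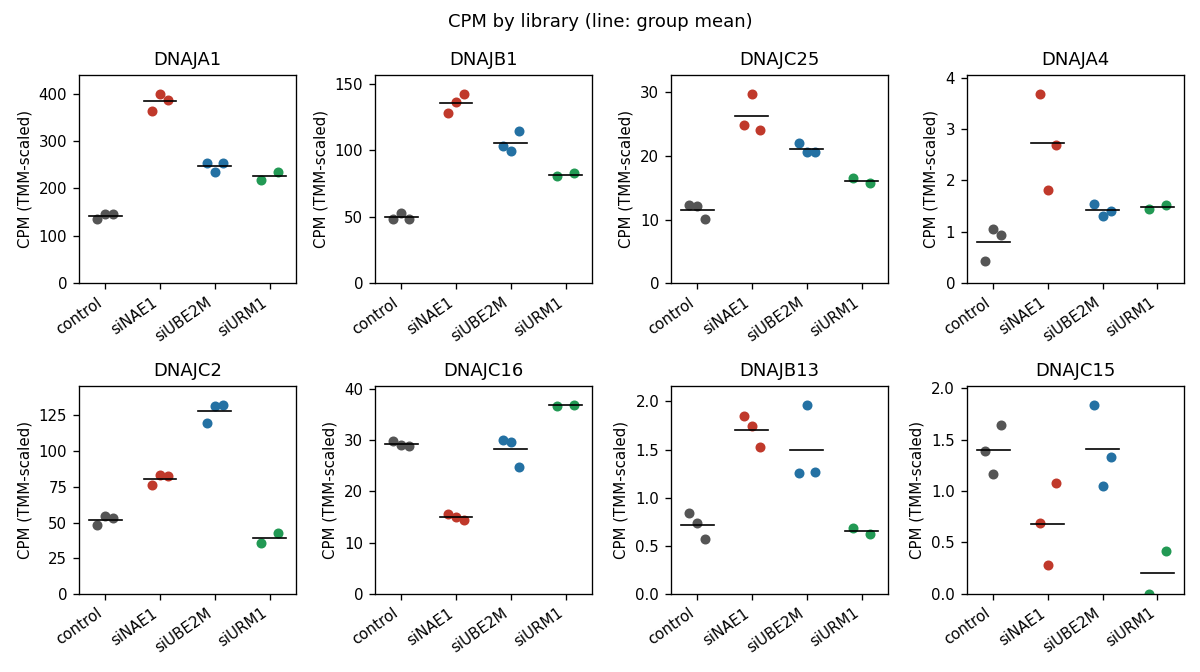
TMM-scaled CPM of 8 members in each library, with a line at each group mean and axes starting at 0. DNAJB1 and DNAJC25 step down from siNAE1 to siUBE2M to siURM1 to control, and DNAJA1 does so except that its siUBE2M and siURM1 libraries overlap; DNAJC2 is highest in siUBE2M (119.7 to 133) and lowest in siURM1 (35.8 and 42.4), DNAJC16 is lowest in siNAE1 (14.4 to 15.5), and DNAJC15 is lowest in siURM1 (0 and 0.416).

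The start regions of these cytosolic genes are shown because heat shock factor 1, the activator of many chaperone genes, binds heat shock elements built from inverted repeats of GAA and TTC. RefSeq windows on GRCh38.p14 from 250 bases before to 50 bases after a start were searched for GAANNTTC and TTCNNGAA, each of which reads the same on both strands; the pair can overlap as 3 units in a row. Capitals mark the matched bases, each line is 30 bases, 5′ to 3′ on the gene's own strand.
DNAJA1, chr9:33025268-33025297, plus strand: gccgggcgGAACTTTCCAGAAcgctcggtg
DNAJB6, chr7:157336865-157336894, plus strand: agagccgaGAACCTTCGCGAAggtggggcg
DNAJA4, chr15:78264460-78264489, plus strand: ggaacctccgcGAAGGTTCtaggcctttgt
DNAJA4, chr15:78264499-78264528, plus strand: gtctccttgcgGAAGCTTCcgccggcgccg
DNAJB1, chr19:14518456-14518485, minus strand: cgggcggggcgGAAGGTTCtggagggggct
DNAJB1, chr19:14518426-14518455, minus strand: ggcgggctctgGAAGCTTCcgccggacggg
DNAJB4, chr1:78004830-78004859, plus strand: agcatttgctgTTCTAGAAagtacagagac

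The DNAJA1 match shown ran from base 4 to 16 after its RefSeq start, the DNAJB6 match from -131 to -119, the DNAJA4 matches from -91 to -84 and -52 to -45, the DNAJB1 matches from -77 to -70 and -47 to -40, and the DNAJB4 match from -98 to -91. Not shown are a single match of DNAJA1 from -198 to -191 and one of DNAJB1 from 2 to 9 of another RefSeq start. A window was found for 41 members, and 8 of them held a match (19.5%), beside 16.2% of 27305 genes with a window. Within the cytosolic list 5 of 9 did (DNAJA1, DNAJA4, DNAJB1, DNAJB4 and DNAJB6). DNAJA1 and DNAJB6 were the only members with 3 units in a row, which 0.608% of all genes had. Outside the list, matches lay from -208 to -201 in DNAJB7, which changed in no knockdown, and from -189 to -182 in DNAJC15, lower in siURM1. DNAJC6, higher in siNAE1, held a match from 43 to 50. Of members higher in siNAE1 6 of 16 with a window held a match, and of those lower 0 of 13. In siUBE2M these were 4 of 13 and 0 of 10, and in siURM1 3 of 12 and 1 of 8. The matching shares among all genes that rose or fell were not taken, and a link of matches to the changes was not tested. A match is a description of the letters in this window, and no binding was measured.

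Members of the ER moved both ways. Of the 11 listed, 3 rose and 5 fell in siNAE1, 4 rose and 3 fell in siUBE2M, and 3 rose and 3 fell in siURM1, with medians of -0.06, -0.01 and 0.18. Apart from the 45.5% that fell in siNAE1 and the 36.4% that rose in siUBE2M, each of these shares was 27.3%, where 20.8% to 27.6% of all genes moved in a given direction. Those that serve HSPA5 (BiP) inside the ER did not move together. DNAJB11, a binder of unfolded proteins, rose in siNAE1 (0.46) and siURM1 (0.34) and was at -0.01 in siUBE2M. DNAJB9, which BiP needs for degradation of misfolded proteins, fell in siUBE2M (-0.39) and had values of 0.15 and 0.07 elsewhere. DNAJC3 fell in siNAE1 (-0.52) and siURM1 (-0.56), with -0.04 in siUBE2M. DNAJC10, a disulfide reductase, fell in all 3: it was at 192, 205 and 202 CPM in control, 133, 133 and 122 in siNAE1, 127, 127 and 119.7 in siUBE2M, and 138 and 142 in siURM1, with log2 fold changes of -0.63, -0.68 and -0.51.

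DNAJC25 (ENSG00000059769, chromosome 9, 111631352 to 111654351, plus strand) was at 12.3, 12.1 and 10.0 CPM in control, 24.9, 29.8 and 24.1 in siNAE1, 22.1, 20.6 and 20.6 in siUBE2M, and 16.5 and 15.7 in siURM1. The 4 groups did not overlap each other. The folds were 2.30, 1.84 and 1.41, and the log2 fold changes 1.20 ± 0.11, 0.88 ± 0.11 and 0.49 ± 0.13 (adjusted p = 1.19e-10, 1.33e-07 and 0.00239). It shares 358 exonic bases on the same strand with the read-through gene DNAJC25-GNG10, which had no count. Of the 1448 exonic bases of that gene, 358 overlap DNAJC25 and 1087 overlap GNG10 on the same strand. The lack of counts therefore does not tell whether the read-through is transcribed. How reads of the shared bases were assigned was not tested.

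DNAJC16 (ENSG00000116138, chromosome 1, 15526813 to 15592379, plus strand), an ER membrane protein, was at 29.8, 29.0 and 28.8 CPM in control, 15.5, 14.96 and 14.4 in siNAE1, 30.04, 29.7 and 24.8 in siUBE2M, and 36.6 and 36.9 in siURM1. The siNAE1 libraries were the lowest and the siURM1 libraries the highest, and those of siUBE2M overlapped control. In siNAE1 it fell to 51.2% of control (log2 fold change -0.97 ± 0.10, adjusted p = 9.39e-10), just short of the DEG threshold. With total counts in place of TMM the siNAE1 value was -1.09 and passed that threshold. In siURM1 DNAJC16 rose (0.33 ± 0.10, adjusted p = 0.00852), a call lost without siURM1 replicate 2 (0.33) and with total counts in place of TMM (0.24).

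DNAJB12 (ENSG00000148719, chromosome 10, 72332830 to 72355230, minus strand) and DNAJB14 are related ER membrane proteins facing the cytosol. DNAJB12, whose control FPKM (10.3 ± 0.447) lay within the spread of that of DNAJB6 (9.92 ± 0.577), was at 62.0, 57.2 and 57.0 CPM in control, 53.0, 57.3 and 58.3 in siNAE1, 65.9, 64.4 and 71.0 in siUBE2M, and 67.5 and 67.0 in siURM1. The siUBE2M and siURM1 libraries lay above control. The siUBE2M value of 0.19 ± 0.07 passed the test (adjusted p = 0.0324) but not without control replicate 2 or 3 or siUBE2M replicate 3 (0.15 to 0.18), with total counts in place of TMM (0.13) or with no filter on low counts (0.20). The siURM1 value of 0.19 ± 0.08 missed it (adjusted p = 0.0533) and passed without control replicate 1, siNAE1 replicate 3 or any 1 siUBE2M replicate (0.19 to 0.24) and with only the 2 groups fitted (0.20). DNAJB14 fell in siNAE1 (-0.37), with -0.00 in siUBE2M and 0.22 in siURM1. Of the others, DNAJC18 fell in all 3 (-0.56, -0.22 and -0.24), DNAJC14 rose in siNAE1 and siUBE2M (0.43 and 0.34), and DNAJC1 rose in siUBE2M (0.45).

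Of the 7 listed mitochondrial members, 2 rose and 2 fell in siNAE1, 4 fell and none rose in siUBE2M, and 1 rose and 1 fell in siURM1. In siUBE2M 57.1% of the list fell, where 22.6% of all genes did, and 0% rose, where 22.7% did. These falls include DNAJA3 (-0.15), whose call was lost without any 1 control or siUBE2M replicate. In siNAE1 28.6% rose and 28.6% fell (27.6% and 27.1% of all genes), and in siURM1 14.3% rose and 14.3% fell (20.8% and 20.8%). DNAJC19, a subunit of the motor that pulls proteins through the inner membrane, fell in siNAE1 (-0.59) and siUBE2M (-0.60), with -0.10 in siURM1. DNAJC11, found at the cristae junctions, rose in siNAE1 (0.45) and siURM1 (0.31), and DNAJC30 fell in siUBE2M (-0.61). DNAJC4 fell in siNAE1 (-0.43) and siUBE2M (-0.32).

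DNAJA3 (ENSG00000103423, chromosome 16, 4425805 to 4456775, plus strand), the class A partner of mitochondrial HSP70, stood apart from the rest of its class. It was at 157, 158 and 156 CPM in control, 176, 169.6 and 175 in siNAE1, 139.8, 144 and 141 in siUBE2M, and 159 and 154 in siURM1. The siNAE1 libraries lay above control and the siUBE2M libraries below, while siURM1 overlapped. The log2 fold changes were 0.14 ± 0.06, -0.15 ± 0.06 and -0.00 ± 0.07 (adjusted p = 0.0363, 0.0357 and 0.963). The siNAE1 call was lost without any 1 control replicate or without siNAE1 replicate 1 or 3 (0.13 to 0.15), with another filter on low counts or only the 2 groups fitted (0.12 to 0.15), and when libraries were scaled by total counts alone (0.02). The siUBE2M call was lost without any 1 control or siUBE2M replicate (-0.15 to -0.13) and with no filter on low counts (-0.15).

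DNAJC15 (ENSG00000120675, chromosome 13, 43023203 to 43114224, plus strand), a relative of DNAJC19 at the inner membrane, was close to the detection limit. It had 23, 19 and 26 counts in control, 9, 4 and 12 in siNAE1, 25, 16 and 19 in siUBE2M, and 0 and 6 in siURM1, or 1.39, 1.17 and 1.64, 0.691, 0.280 and 1.08, 1.84, 1.05 and 1.33, and 0 and 0.416 CPM. The siNAE1 and siURM1 libraries lay below control. The fitted siURM1 log2 fold change was -2.76 ± 0.72 (adjusted p = 0.00215). Without siURM1 replicate 1, the library with no count, it was -1.73 and no longer passed, and without siURM1 replicate 2 the fit gave -7.36, a value set by the prior count and no bound. The siNAE1 value of -1.07 ± 0.52 did not pass (adjusted p = 0.0832) and passed without siNAE1 replicate 3 (-1.53) and with only the 2 groups fitted (-1.09).

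All 6 members of the nucleus, ribosome and translation changed in siNAE1, 3 higher and 3 lower, where 27.6% of all genes were higher and 27.1% lower. In siUBE2M 2 were higher and 1 lower (22.7% and 22.6% of all genes), and in siURM1 1 was higher and 2 lower (20.8% and 20.8%). DNAJC2 (ENSG00000105821, chromosome 7, 103312474 to 103344873, minus strand), which sits at the ribosome exit with HSPA14 as the ribosome-associated complex, was at 48.2, 54.5 and 52.9 CPM in control, 76.1, 82.9 and 82.9 in siNAE1, 119.7, 131 and 133 in siUBE2M, and 35.8 and 42.4 in siURM1. The 4 groups did not overlap each other, with siUBE2M highest and siURM1 lowest. The folds were 1.56, 2.47 and 0.753, and the log2 fold changes 0.64 ± 0.08, 1.30 ± 0.08 and -0.41 ± 0.09 (adjusted p = 2.08e-08, 4.66e-15 and 0.000396). HSPA14, named after its values were seen, fell in all 3 knockdowns (-0.25, -0.53 and -0.65). PMPCB overlaps 1400 exonic bases of DNAJC2 (20.9%) on the opposite strand and had log2 fold changes of 0.23, 0.57 and 0.21; the part of those reads in the DNAJC2 counts was not tested.

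DNAJC8 (ENSG00000126698, chromosome 1, 28199456 to 28233025, minus strand) was at 282, 301 and 288 CPM in control, 243, 271 and 257 in siNAE1, 294, 269.8 and 313 in siUBE2M, and 304 and 328 in siURM1. The siNAE1 libraries lay below control. The siNAE1 value of -0.18 ± 0.06 passed (adjusted p = 0.0185) but not without control replicate 2 (-0.15) or siNAE1 replicate 1 (-0.13), and the siUBE2M and siURM1 values were 0.01 ± 0.06 and 0.12 ± 0.07 (adjusted p = 0.91 and 0.162). Its pseudogene DNAJC8P1 had 4 to 28 counts per library, so few reads were assigned to that copy.

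DNAJC9, a histone chaperone, rose by 0.32, 0.27 and 0.32; 56.5% of its exonic bases overlap FAM149B1 on the opposite strand, whose values were -0.58, -0.16 and -0.07. DNAJC17, a splicing protein, fell in all 3 knockdowns: it was at 19.0, 22.1 and 19.2 CPM in control, 11.0, 10.6 and 12.1 in siNAE1, 12.7, 12.4 and 13.6 in siUBE2M, and 11.3 and 14.3 in siURM1, with log2 fold changes of -0.85, -0.64 and -0.66. DNAJC21, needed for large ribosomal subunits, fell in siNAE1 (-0.30), and DNAJC24, an enzyme cofactor of diphthamide synthesis, rose there (0.45).

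Among the 5 tested members of vesicles and endosomes, DNAJC6 (auxilin, which strips clathrin coats) rose in siNAE1 (0.50), and DNAJC13, an endosomal protein, rose in siUBE2M (0.66) and siURM1 (0.52). DNAJC5 (ENSG00000101152, chromosome 20, 63895182 to 63936031, plus strand), the cysteine string protein of secretory vesicles, was at 138, 142 and 147 CPM in control, 151, 144 and 162 in siNAE1, 152, 156 and 157 in siUBE2M, and 177 and 154 in siURM1. The siURM1 value of 0.22 ± 0.07 passed (adjusted p = 0.0139) and did not pass when siURM1 replicate 1 was left out (0.12) or with total counts in place of TMM (0.13). Its siNAE1 and siUBE2M values were 0.10 ± 0.07 and 0.13 ± 0.07 (adjusted p = 0.214 and 0.117). In no list were DNAJC12, a partner of the aromatic amino acid hydroxylases, which rose in siNAE1 (0.79) and siUBE2M (0.29), and DNAJC22, which fell in siURM1 (-0.56).

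Members known mainly from testis and cilia were scarce. DNAJB13 (ENSG00000187726, chromosome 11, 73950319 to 73970366, plus strand), a protein of ciliary radial spokes, had 14, 12 and 9 counts in control, 24, 25 and 17 in siNAE1, 17, 30 and 18 in siUBE2M, and 11 and 9 in siURM1. In CPM these were 0.845, 0.738 and 0.568, then 1.84, 1.75 and 1.53, then 1.25, 1.97 and 1.26, then 0.686 and 0.623. The siNAE1 and siUBE2M libraries lay above control and those of siURM1 within it. The log2 fold changes were 1.24 ± 0.40 (adjusted p = 0.00925), 1.05 ± 0.40 (0.0317) and -0.13 ± 0.50 (0.861). The siUBE2M call was lost without control replicate 2 (1.08) or 3 (0.92) or siUBE2M replicate 2 (0.81), and also by DESeq2 (adjusted p = 0.0642) and with no filter on low counts (0.0569). DNAJB7 and DNAJC5G, with at most 46 counts per library, changed in none of the 3 knockdowns, and the lowest DNAJC5G value was -1.16 in siURM1 (adjusted p = 0.0586).

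Direct comparisons between knockdowns put siNAE1 above siURM1 for 11 members and below for 9, where 19.5% of all genes were higher and 19.1% lower. The 3 DEGs, against 6.76% of all genes, were DNAJC2 (1.05 ± 0.09) and DNAJB13 (1.37 ± 0.47), both higher in siNAE1, and DNAJC16 (-1.30 ± 0.11), lower in siNAE1. The DNAJB13 call was lost without either siURM1 replicate (1.44 and 1.30), and DNAJC2 was under the threshold, at 0.93, without siURM1 replicate 1. The count of DEGs was 5 without siNAE1 replicate 2 and 1 without siURM1 replicate 1. DNAJA1, DNAJB1 and DNAJC25 were also higher in siNAE1 than in siURM1, by 0.76 ± 0.07, 0.73 ± 0.08 and 0.71 ± 0.12 (adjusted p = 1.67e-10, 6.94e-09 and 2.48e-05). siUBE2M was above siURM1 for 8 members and below for 7, where 16.7% of all genes were higher and 18.3% lower; the higher members numbered 5, 4 and 5 without siUBE2M replicate 1, siURM1 replicate 1 and siURM1 replicate 2. Its 3 DEGs, against 5.41% of all genes, were all higher in siUBE2M: DNAJC2 by 1.71 ± 0.09, DNAJC15 by 2.76 ± 0.72 and DNAJB13 by 1.18 ± 0.47. The DNAJC15 call was lost without siURM1 replicate 1 (1.73), and the fit without siURM1 replicate 2, with no count left, gave 7.36; the count of DEGs was 1 without siURM1 replicate 1. DNAJB13, at an adjusted p of 0.0478, lost its call without any 1 control, siURM1 or siNAE1 replicate other than siNAE1 replicate 2, and without siUBE2M replicate 1 or 2 (0.93 to 1.29). It also did not pass by DESeq2 (adjusted p = 0.0883), with no filter on low counts (0.0884) or with only the 2 groups fitted (0.0534). DNAJA1 did not pass (0.12 ± 0.07, adjusted p = 0.158) and DNAJB1 did (0.37 ± 0.08, adjusted p = 0.00035).

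siNAE1 was above siUBE2M for 14 members and below for 13, where 22.7% of all genes were higher and 21.6% lower. By edgeR none of the 42 was a DEG, against 7.84% of all genes; the count was 0 at an unadjusted p under 0.05 too, and 0 by DESeq2, and it was 1 without siNAE1 replicate 2 or 3. The differences that passed included DNAJA1 (0.64 ± 0.06, adjusted p = 3.08e-10) and DNAJB1 (0.36 ± 0.07, adjusted p = 6.71e-05), higher in siNAE1, and DNAJC16 (-0.91 ± 0.10, adjusted p = 7.41e-09) and DNAJC2 (-0.67 ± 0.07, adjusted p = 8.84e-09), lower in siNAE1.

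The HSP70 proteins that DNAJ members serve changed in both directions. Of 12 listed, 11 passed the filter, and 6 rose and 5 fell in siNAE1, 4 rose and 4 fell in siUBE2M, and 4 rose and 5 fell in siURM1, where 27.6% of all genes rose and 27.1% fell, 22.7% and 22.6%, and 20.8% and 20.8%. HSPA8, the constitutive HSP70 of the cytosol, rose by 2.54, 2.20 and 1.87, and the inducible HSPA1A by 3.37, 1.59 and 3.24. HSPA1B rose by 2.97, 1.64 and 2.68, though it is nearly identical to HSPA1A and the split of reads between them is uncertain. HSPA2 rose by 1.85, 2.48 and 2.00, and HSPA12B by 1.58 in siNAE1. HSPA1L fell in siNAE1 (-1.89) and siURM1 (-1.72). HSPA5, named after its values were seen, rose in siNAE1 (0.48) and fell in siUBE2M (-0.43) and siURM1 (-0.35).

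Nucleotide exchange factors, which reopen HSP70, rose in 8 and fell in 1 of 13 in siNAE1, against 4 and 5 in siUBE2M and 5 and 2 in siURM1. These were 61.5% and 7.69%, 30.8% and 38.5%, and 38.5% and 15.4%, beside the same shares of all genes as for HSP70. BAG1 was the only DEG among them, with log2 fold changes of 1.76 in siNAE1 and 0.90 and 0.96, changed but short of the threshold, in the others. Of 7 other co-chaperones all 7 rose in siNAE1, 5 rose in siUBE2M, and 4 rose and 1 fell in siURM1, where 27.6%, 22.7% and 20.8% of all genes rose and 27.1%, 22.6% and 20.8% fell. TTC1, a TPR protein, rose by 1.19, 0.68 and 0.37, and DNLZ, a helper of mitochondrial HSP70, by 1.96 in siNAE1 from a level of 0.163 CPM in control. Of the 4 J domain proteins with other symbols, GAK, a relative of auxilin, rose in all 3 knockdowns (0.45, 0.44 and 0.31), while SEC63 of the ER (-0.89, -0.33 and -0.75) and HSCB of iron-sulfur cluster assembly (-0.69, -0.93 and -0.81) fell.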

How the data were processed

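Per the labels and the study's methods, the authors used fastp to trim paired reads of 150 bases from stranded poly(A) libraries, mapped these with HISAT2 2.0.5 on GRCh38 and assigned them with featureCounts 1.5.0-p3, and the deposited counts are whole numbers per gene without normalization. The authors computed the deposited FPKM values from these counts, the listed gene length and library size, and named DESeq2 1.20.0 for their own comparisons. Which annotation release was counted, and whether strand was used, is not given in the sources used here, so reads of overlapping genes on opposite strands may not be separated.

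Counts were filtered with filterByExpr, scaled with TMM and fitted over all 4 groups in edgeR 4.0.16 (R 4.3.3) by the quasi-likelihood method, with 6 contrasts and Benjamini-Hochberg adjustment over all 18368 genes tested. The steps were tested on simulated data with 200 changed genes. The biological coefficient of variation was 7.06%. Total counts of 11733163 to 16321391 limit precision for scarce members, and intervals from replicates include counting error. Class sums used FPKM and no test. Same-numbered libraries of different groups did not deviate together (correlations of -0.0657 to 0.0787 over 15 pairs), so the numbers do not pair them.

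The members and lists, the promoter motifs and the rule for printed values were chosen with earlier results of these data known. Values in every library were printed for class A, for each DEG, for members changed in opposite directions and for the top 2 of classes B and C in control FPKM, and for some others that serve as examples (DNAJB2, DNAJB6, DNAJC10 and DNAJC17). Alternatives were DESeq2 1.42.0, other scaling and filters, fits of only the groups compared, a replicate block, and leaving out each library. Gene overlaps came from GENCODE v44 and promoter windows from RefSeq.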

Additional observations from a re-analysis of the deposited data

How the results depend on the processing

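The total counts of changed members stayed within 1.5 times their main value under every alternative run, but some counts by direction did not. Without siUBE2M replicate 1, 5 members in place of 10 were lower in siUBE2M than in control. In siUBE2M against siURM1, 8 higher members became 5, 4 and 5 without siUBE2M replicate 1, siURM1 replicate 1 and siURM1 replicate 2, and DESeq2 gave 6 higher and 9 lower in place of 8 and 7. Of the DEG counts, siNAE1 against control was 3 with at least 10 counts required in every library (37 members tested) and 5 to 6 with each library left out. It was 6 with total counts in place of TMM or with only the 2 groups. siUBE2M against control was 2 with DESeq2, total counts, no filter or at least 10 counts, and 2 to 3 with each library left out. siURM1 against control was 2 with total counts in place of TMM, with no filter, with only the 2 groups or with the replicate block, 0 with at least 10 counts, where edgeR called none at an unadjusted p either and DNAJC15 was not tested, and 0 to 2 with each library left out. siUBE2M against siURM1 was 1 with at least 10 counts and 1 to 3 with a library left out, siNAE1 against siURM1 was 1 to 5, and siNAE1 against siUBE2M was 0 to 1. A group left with 1 siURM1 library is assumed to vary like the others. The replicate numbers do not pair the libraries, and the block left 30, 24 and 21 members changed against control.

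Without its highest member, class A was at 1.26, 1.05 and 1.07 of control in siNAE1, siUBE2M and siURM1, class B at 1.11, 1.05 and 1.07, and class C at 1.04, 1.11 and 1.05. With each library left out, class A was at 2.05 to 2.13, 1.42 to 1.48 and 1.34 to 1.40, class B at 1.40 to 1.46, 1.21 to 1.28 and 1.17 to 1.19, and class C in siNAE1 at 0.966 to 0.998.

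Values near 0 that were not called changed sign. The DNAJA3 siURM1 value was 0.000198 with no filter, 0.00337 with only 2 groups and -0.0290 to 0.0257 with a library left out. DNAJB12 in siUBE2M against siURM1 was 0.0283 with total counts, 0.0112 with at least 10 counts, 0.00314 with only 2 groups and -0.0458 to 0.0267 with a library left out. DNAJC15 in siUBE2M was -0.0542 with total counts, -0.00418 with only 2 groups and -0.223 to 0.192. DNAJC8 in siUBE2M was -0.0478 with total counts and -0.0412 to 0.0786, and DNAJC5 in siNAE1 was -0.0276 with total counts and 0.0495 to 0.138. With a library left out, DNAJB13 in siURM1 was -0.258 to 0.0138, DNAJC16 in siUBE2M -0.0914 to 0.0330, DNAJC5 in siNAE1 against siUBE2M -0.0671 to 0.0113, and DNAJC5 in siUBE2M against siURM1 -0.196 to 0.00764. With total counts the median of all genes against control was -0.13, -0.05 and -0.11, beside -0.00, 0.01 and -0.02 with TMM; the causes of the other moves were not tested.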

Other observations

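Of the DNAJ-named genes that are not protein-coding, 5 passed the filter on low counts. DNAJC27-AS1, antisense to DNAJC27, had 20, 26 and 14 counts in control and 2, 1 and 4 in siNAE1, and it fell there by edgeR's quasi-likelihood test (log2 fold change -2.69 ± 0.62, adjusted p = 0.000453). Its siUBE2M and siURM1 values of -1.13 and -0.76 did not pass (adjusted p = 0.0661 and 0.278). DNAJC27 itself was at -0.16 in siNAE1 and did not pass. The gene ENSG00000236756, one of a pair listed as DNAJC9-AS1, had 12, 12 and 8 counts in control and 1, 2 and 1 in siNAE1 (-2.57 ± 0.73, adjusted p = 0.00359), while the other, ENSG00000227540, was at -0.09 and did not pass. DNAJC3-DT and DNAJC8P1 passed in none of the 3 knockdowns. These genes were named after their values were seen.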
